A study of Mus musculus with 8 samples.

Results

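The platelet-derived growth factor (PDGF) ligand genes *Pdgfa*, *Pdgfb*, *Pdgfc* and *Pdgfd* and the receptor genes *Pdgfra* and *Pdgfrb* were examined in RNA from mouse brain pericyte cultures. They were taken by symbol, and all 6 were found among the 54532 gene identifiers and passed the filter on low counts that left 22544 genes to be tested. Primary cultures from the brain of wild-type mice had been treated for 48 h with TGF-β1 (5 μg/mL, n = 4) or with vehicle (n = 4). Before treatment the cells were expanded over several passages in media that contain serum and growth factors, so they are culture-adapted cells and not freshly isolated pericytes. Neither the age nor the sex of the animals is given in the labels.

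PDGFs are secreted dimers that signal through a pair of receptor tyrosine kinases. PDGF-A binds the α receptor only, PDGF-B binds both receptors, PDGF-C binds mainly the α receptor and PDGF-D mainly the β receptor. PDGF-A and PDGF-B are matured inside the cell by furin-like convertases, whereas PDGF-C and PDGF-D are secreted with a CUB domain that is removed by proteases such as tissue-type and urokinase-type plasminogen activator. In the developing brain, PDGF-B from endothelial cells recruits pericytes, which carry the β receptor, to the capillary wall.

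TGF-β1 changed 5 of the 6 genes, and *Pdgfra* was the exception. *Pdgfb* rose most, 9.40-fold from a very low level, and *Pdgfa* rose 2.40-fold. *Pdgfrb* rose 1.44-fold and *Pdgfc* 1.28-fold, while *Pdgfd* fell 2.14-fold. Each of these 5 had an adjusted p under 0.05 and groups that did not overlap (quasi-likelihood test of edgeR, Benjamini-Hochberg adjusted over all genes tested). The response to TGF-β1 was wide, since 41.3% of all genes tested passed this threshold, 20.9% upward and 20.3% downward, and 37.9% had groups that did not overlap. Against that background the count of PDGF genes alone says little, and the size of the changes is more informative. A rise of over 1 on the log2 scale, as in *Pdgfa* and *Pdgfb*, was called in 2.59% of the genes tested, and a fall of over 1, as in *Pdgfd*, in 2.83%.

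**Figure D1:**
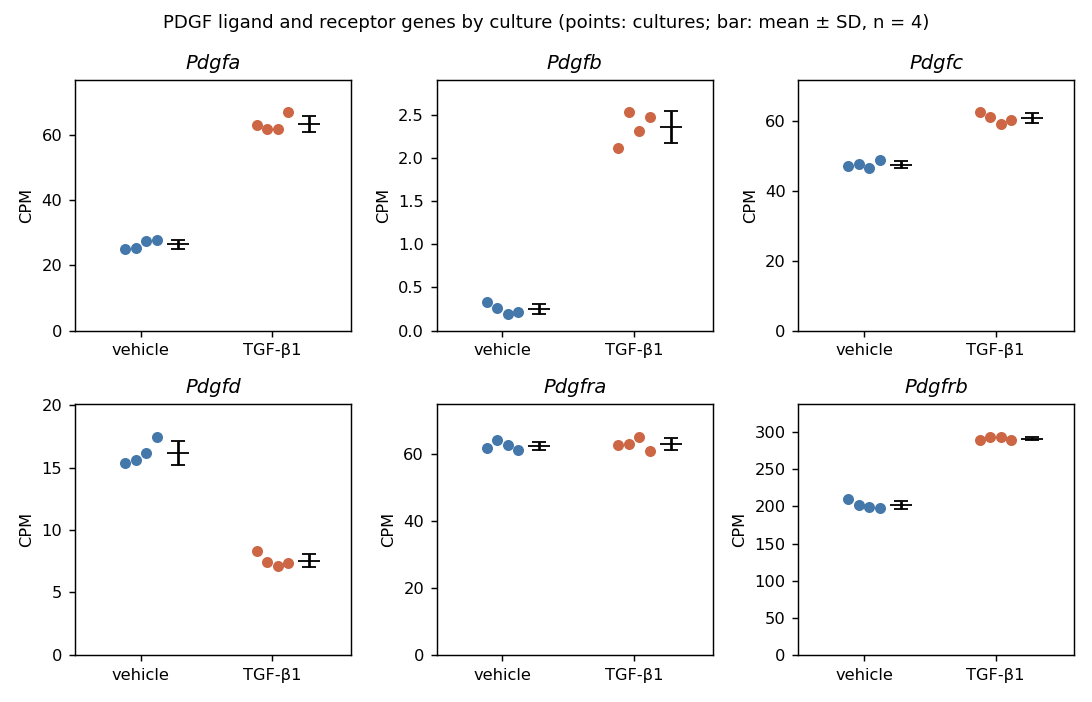
CPM (the standard depth-scaled unit, counts set relative to the library total; y axis from 0) of the 6 PDGF genes in each culture, with vehicle in blue and TGF-β1 in orange; points are cultures and the black bar is the mean ± SD (n = 4). The groups are apart in every panel but that of Pdgfra, where both lie between 61.0 and 65.2 CPM.

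Counts per culture summed to between 45255235 and 47651397, and a count of 3 corresponded to about 0.063 to 0.0663 CPM. From 68.5% to 70.2% of the counts between 1 and 20 were even, so the number of independent fragments may be smaller than the counts. The pericyte genes *Cspg4* and *Notch3* were expressed, at 79.9 to 176.5 and 80.8 to 90.8 CPM. In contrast, *Kcnj8*, *Abcc9* and *Vtn*, which define brain pericytes in tissue, were at or near 0 (at most 0.189 CPM in any culture). Of the 11 pericyte markers, 5 stayed under 1 CPM in every culture. In bulk RNA, a change in the number of cells of a type and a change in RNA per cell cannot be told apart.

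Because *Pdgfa* and *Pdgfc* rose, *Pdgfd* fell and *Pdgfra* did neither, the sequence before their transcription starts is given for comparison. It comes from RefSeq (GRCm38.p6), where promoter windows matched *Pdgfa* (with 2 starts), *Pdgfc*, *Pdgfd* and *Pdgfra*; for *Pdgfa* only the 117 bases before its downstream start that lie outside annotated exons are printed, which are intron for transcripts that begin farther upstream. Capitals mark CAGAC or its complement GTCTG (letters bound by SMAD proteins, which carry the TGF-β signal), TATAAA or TTTATA (the TATA box) and GGGCGG or CCGCCC (the GC box), searched on both strands; no marked motif overlapped another.
Pdgfa, chr5:138994282-138994398, minus strand: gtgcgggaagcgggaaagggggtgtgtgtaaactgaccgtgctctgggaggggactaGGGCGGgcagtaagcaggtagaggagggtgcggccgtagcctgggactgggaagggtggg
Pdgfc, chr3:81036166-81036415, plus strand: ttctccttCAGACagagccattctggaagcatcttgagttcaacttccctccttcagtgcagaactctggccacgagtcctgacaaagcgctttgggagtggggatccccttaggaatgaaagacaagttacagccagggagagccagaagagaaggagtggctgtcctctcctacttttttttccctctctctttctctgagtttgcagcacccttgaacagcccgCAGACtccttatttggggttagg
Pdgfd, chr9:6168236-6168485, plus strand: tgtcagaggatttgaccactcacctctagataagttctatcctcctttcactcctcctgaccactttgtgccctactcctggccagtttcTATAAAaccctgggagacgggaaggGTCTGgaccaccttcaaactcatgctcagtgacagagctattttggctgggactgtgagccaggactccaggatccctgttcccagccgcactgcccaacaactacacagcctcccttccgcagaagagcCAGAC
Pdgfra, chr5:75152001-75152250, plus strand: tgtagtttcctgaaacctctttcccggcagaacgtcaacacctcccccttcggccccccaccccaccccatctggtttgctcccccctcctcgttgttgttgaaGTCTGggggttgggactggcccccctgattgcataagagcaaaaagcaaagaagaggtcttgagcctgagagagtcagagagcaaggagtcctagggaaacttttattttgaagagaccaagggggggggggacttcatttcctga
In windows of 250 bases, *Pdgfc* and *Pdgfd* each had 2 CAGAC matches and *Pdgfra* had 1, and neither *Pdgfa* window had any. CAGAC was found in 42.2% of the 32851 windows of this length that were searched, so its presence is common. *Pdgfd* had the 1 TATAAA match (12.4% of all windows hold one). GGGCGG was found only before the starts of *Pdgfa*, 2 times before the upstream start and 1 time before the other (32.7% of all windows). Both matches before the upstream start lie in the 93 bases of that window that are annotated as *Pdgfa* exon. The *Pdgfa* windows were also rich in G and C, at 72.4% and 66.4% against a median of 52.4% over all windows. In the upstream window, at 72.4%, the longest stretch outside annotated exons was 18 bases, so it is mostly exon sequence.

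*Pdgfa* (ENSMUSG00000025856, chromosome 5, 138976014 to 138997370 of GRCm38, minus strand) encodes the ligand of the α receptor. Vehicle cultures 1 to 4 held 24.9, 25.4, 27.5 and 27.7 CPM, and TGF-β1 cultures 5 to 8 held 63.0, 61.7, 61.6 and 66.8 CPM. The lowest treated culture was thus far above the highest vehicle culture. The mean went from 26.4 ± 1.44 CPM (SD, n = 4) to 63.3 ± 2.41 CPM (SD, n = 4), a log2 fold change of 1.26 (standard error 0.04, edgeR adjusted p = 2.54e-28). By size of rise it ranked at 358 among the 22544 genes tested. Exons of the antisense gene *6330403L08Rik* on the other strand cover 26.07% of the exon length of *Pdgfa*, and this gene rose as well, from 16.8 ± 1.38 to 33.3 ± 0.908 CPM (SD, n = 4 each; log2 fold change 0.99, edgeR adjusted p = 7.97e-21). The library kit keeps the strand, but the strand setting of the counting is not given in the sources used here, so how far reads of these genes were told apart is unknown.

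*Pdgfb* (ENSMUSG00000000489, chromosome 15, 79995874 to 80014977, minus strand) encodes the ligand that is best known as the endothelial signal to pericytes. It was barely detected with vehicle, with 15, 12, 9 and 10 reads per culture, against 97, 116, 106 and 116 reads with TGF-β1. In CPM these were 0.326, 0.263, 0.189 and 0.217 with vehicle and 2.12, 2.53, 2.31 and 2.47 with TGF-β1, so the groups were far apart although the level stayed low. The log2 fold change was 3.23 (standard error 0.22, 95% interval 2.78 to 3.68, edgeR adjusted p = 1.69e-16), and by size of rise the gene ranked at 12 among all those tested. Its relative spread was the widest of the 6 genes, with a coefficient of variation of 24.0% in the vehicle cultures, as few reads allow. None of its exon bases is shared with another gene.

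Of the markers listed for endothelial cells, the usual source of *Pdgfb*, none that could be tested was called higher beside it. *Cldn5*, *Erg* and *Emcn* were at most 0.213, 0.131 and 0.298 CPM in any culture, and *Pecam1* lay between 0.780 and 1.65 CPM, with a log2 fold change of -0.00 (standard error 0.21, edgeR adjusted p = 0.993). Summed over the 7 endothelial markers other than *Pdgfb*, the level was 388.9 to 403.6 CPM with vehicle and 372.6 to 399.3 CPM with TGF-β1. Almost all of that sum was *Cdh5*, the gene of VE-cadherin, at 348.6 to 382.8 CPM. Of the 4 that could be tested, *Tek* fell (log2 fold change -0.45, edgeR adjusted p = 0.0126), and none rose. Outside this list, the receptor genes *Flt1* and *Flt4* rose, with log2 fold changes of 0.28 and 0.78 (edgeR adjusted p = 1.16e-11 and 1.66e-05). The part of endothelial cells in the *Pdgfb* values was not tested.

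*Pdgfc* (ENSMUSG00000028019, chromosome 3, 81036416 to 81214040, plus strand), whose product needs proteolytic removal of its CUB domain to become active, showed a small and even rise. The vehicle cultures held 46.9, 47.7, 46.4 and 48.7 CPM and the TGF-β1 cultures 62.4, 61.1, 59.2 and 60.3 CPM. All treated cultures were above all vehicle cultures, and the spread within each group was small. The log2 fold change was 0.36 (standard error 0.03, edgeR adjusted p = 2.35e-12), close to the median absolute change of 0.32 among all called genes. The antisense gene *Gm16000* covers 2.89% of its exon length and lay at 0.845 to 1.79 CPM.

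*Pdgfd* (ENSMUSG00000032006, chromosome 9, 6168584 to 6378850, plus strand), which encodes the CUB-domain ligand of the β receptor, moved the other way. It lay at 15.4, 15.6, 16.2 and 17.5 CPM in the vehicle cultures and at 8.29, 7.40, 7.14 and 7.34 CPM in the TGF-β1 cultures. The groups were far apart, with all treated cultures below all vehicle cultures. The mean went from 16.2 ± 0.935 to 7.54 ± 0.512 CPM (SD, n = 4 each), a log2 fold change of -1.10 (standard error 0.07, edgeR adjusted p = 5.70e-18). *Ddi1*, a gene on the other strand within the *Pdgfd* locus that shares no exon base with it, also fell, from 4.39 ± 0.949 to 2.34 ± 0.170 CPM (SD, n = 4 each; log2 fold change -0.91, edgeR adjusted p = 2.14e-07).

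*Pdgfrb* (ENSMUSG00000024620, chromosome 18, 61045150 to 61085061, plus strand) encodes the β receptor, by which pericytes are commonly recognized. The study compared its expression with and without TGF-β by PCR as one of the genes held to mark pericyte presence, and described it as roughly unaltered. PCR is another measure than the sequencing used here, and the study's results describe a shorter treatment for it than the 48 h used here. *Rgs5*, which the study described in the same way, had a log2 fold change of -2.02 here (edgeR adjusted p = 7.63e-21). In the vehicle cultures *Pdgfrb* was at 209.7, 202.4, 198.9 and 197.5 CPM, and in the TGF-β1 cultures at 288.9, 293.4, 293.8 and 289.5 CPM. Both groups were tight, with coefficients of variation of 2.69% and 0.884%, and the gap between them was many times the spread within them. The log2 fold change was 0.53 (standard error 0.02, 95% interval 0.48 to 0.58, edgeR adjusted p = 1.26e-22).

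*Pdgfra* (ENSMUSG00000029231, chromosome 5, 75152292 to 75198215, plus strand) encodes the α receptor, which marks fibroblasts and oligodendrocyte precursors in the brain. It held 61.9, 64.2, 62.6 and 61.3 CPM with vehicle and 62.9, 62.9, 65.2 and 61.0 CPM with TGF-β1. The groups overlapped fully, and both the lowest and the highest of the 8 values came from treated cultures. The log2 fold change was 0.01 (standard error 0.03, edgeR adjusted p = 0.82), with a 95% interval from -0.05 to 0.08. With 2831 to 2988 reads per culture, depth was not the limit. *Olig1* and *Olig2*, the defining factors of oligodendrocyte precursors, were at most 0.0655 and 0.0434 CPM and *Neu4* was at 0 in all cultures. *Sox10* and *Lhfpl3*, both under 1 CPM, fell by 1.09 and 0.80 on the log2 scale. Both calls were near the threshold (edgeR adjusted p = 0.037 and 0.0486) and rested on 2 to 34 and 11 to 29 reads per culture. The groups of *Sox10* overlapped. Of the fibroblast markers, *Col1a1* rose (log2 fold change 0.67) and *Col1a2* rose (0.43), *Dcn* (-0.16), *Gsn* (-0.79), *Dpt* (-0.82) and *Scara5* (-3.64) fell, and *Lum* stayed at or under 0.130 CPM. The call of *Dpt* was near the threshold (edgeR adjusted p = 0.049), with 9 to 28 reads per culture. Summed over the 9 fibroblast markers other than *Pdgfra*, the level was 4764 to 4976 CPM with vehicle and 5878 to 6118 CPM with TGF-β1. Most of that sum, and its rise, was *Col1a1* (means 1587 and 2525 CPM) and *Col1a2* (2121 and 2852 CPM). The means of *Gsn* (1067 and 615.9 CPM), *Scara5* (68.8 and 5.53 CPM) and *Dcn* (52.1 and 46.7 CPM) went down. The part of fibroblasts in these values was not tested.

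**Figure D2:**
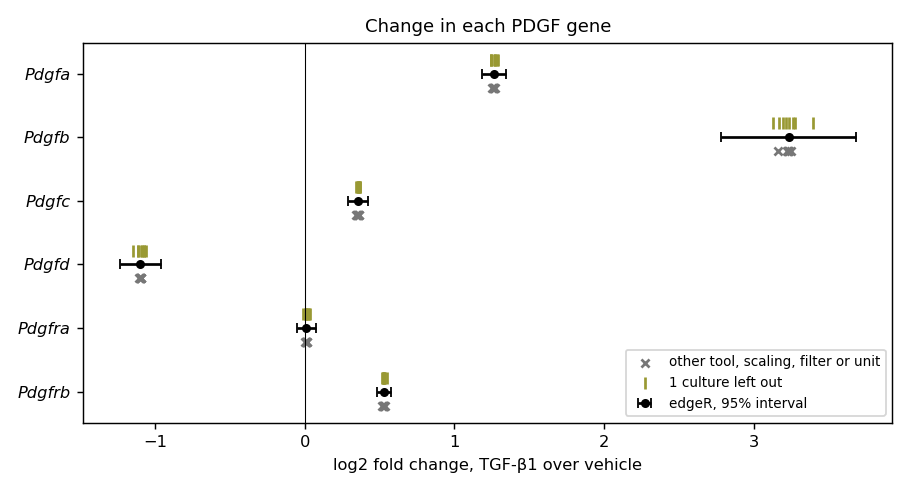
Log2 fold change (x axis, TGF-β1 over vehicle) of each PDGF gene: black points with bars are the edgeR estimates with their 95% intervals, crosses are other tools, scalings, filters or counting units, and ticks are fits with 1 culture left out. Pdgfra lies at 0, Pdgfd at -1.10, and the other 4 genes lie above 0, with Pdgfb at 3.23.

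To compare genes with each other, CPM was divided by exon length in kilobases (kb). *Pdgfrb* was the most abundant of the 6 in each culture, at 36.9 ± 0.992 CPM per kb with vehicle and 53.2 ± 0.470 with TGF-β1 (SD, n = 4 each). Averaged over the 8 cultures, its level per kb exceeded that of 95.9% of the genes tested. *Pdgfra* was at 6.24 ± 0.125 and 6.29 ± 0.171 CPM per kb. The ratio of β to α receptor transcripts was thus between 5.77 and 6.20 in the vehicle cultures and between 8.25 and 8.68 in the TGF-β1 cultures. With the longest transcript as length it was 3.97 to 4.27 with vehicle and 5.68 to 5.98 with TGF-β1. The ratio rose with either length, but its size depends on the length used.

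Among the ligands with vehicle, *Pdgfc* came first at 9.32 ± 0.194 CPM per kb, followed by *Pdgfa* at 8.46 ± 0.461, *Pdgfd* at 5.12 ± 0.297 and *Pdgfb* at 0.0598 ± 0.0143 (SD, n = 4 each). The *Pdgfa* and *Pdgfc* values were close, from 7.99 to 8.89 and from 9.13 to 9.57. They overlapped when the longest transcript was used as length, at 12.1 to 13.5 for *Pdgfa* and 13.2 to 13.8 for *Pdgfc*, so whether these neighbours differ beyond their spread depends on the length used. With TGF-β1 the order changed. *Pdgfa* led at 20.3 ± 0.772, followed by *Pdgfc* at 11.9 ± 0.263, *Pdgfd* at 2.39 ± 0.162 and *Pdgfb* at 0.566 ± 0.0440 CPM per kb (SD, n = 4 each). The sum of the 4 ligands per kb went from 23.0 ± 0.822 to 35.2 ± 0.871. Within that sum, *Pdgfa* went from 36.8% ± 0.971 to 57.6% ± 1.11 and *Pdgfd* from 22.3% ± 0.496 to 6.80% ± 0.416 (SD, n = 4 each). With the longest transcript as length, the mean shares were 40.6% and 60.0% for *Pdgfa* and 16.4% and 4.71% for *Pdgfd*. *Pdgfb* made up 1.61% ± 0.132 of the ligand sum even after its rise. These are shares of transcripts, and no protein was measured here.

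**Figure D3:**
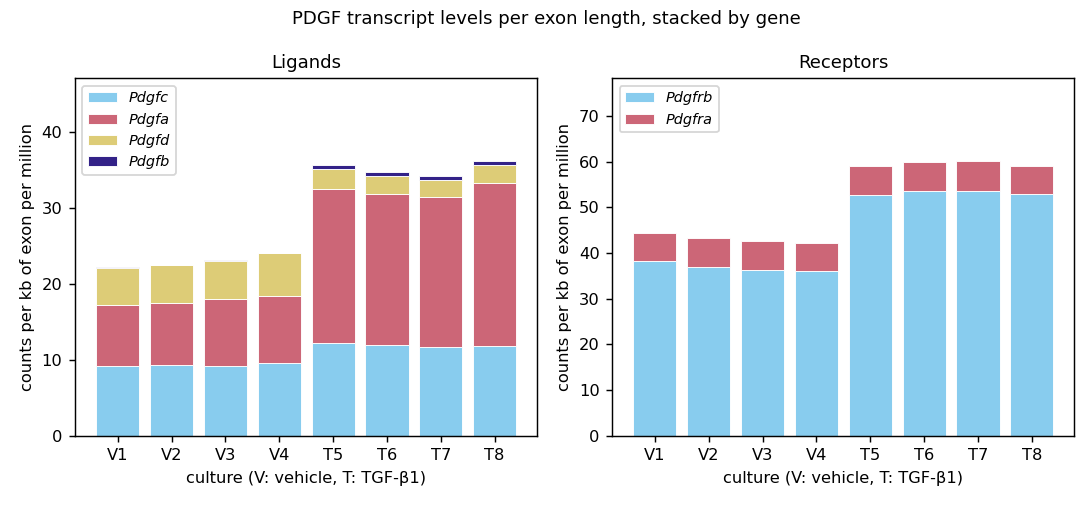
Transcript levels (y axis, CPM per kb of exon, from 0) of the PDGF ligands on the left and receptors on the right, stacked by gene, for vehicle cultures V1 to V4 and TGF-β1 cultures T5 to T8. The red Pdgfa block grows from 7.99 to 8.89 with vehicle to 19.8 to 21.4 with TGF-β1, whereas the red Pdgfra block stays between 6.09 and 6.50.

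The genes that process, bind or present PDGFs were listed by role, and 14 of the 15 were tested. Of these, 6 rose (42.9%, against 20.9% of all genes) and 3 fell (21.4%, against 20.3%). Here and in the lists below, the shares are not matched for expression level, and the lists were chosen with earlier results of these data known. The share over all genes includes genes of few reads, for which precision is lower. *Furin*, the main convertase of PDGF-A and PDGF-B, rose from 256.7 ± 4.71 to 328.1 ± 5.03 CPM (SD, n = 4 each; log2 fold change 0.35), and the related *Pcsk5* rose by 0.92 from 1.40 to 2.65 CPM, while *Pcsk7* fell by 0.13 on the log2 scale. *Pcsk6* was at 0.444 and 0.293 CPM and was not called (log2 fold change -0.59, edgeR adjusted p = 0.235).

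*Plat*, which encodes the tissue-type plasminogen activator that cleaves PDGF-C, fell from 107.9 ± 2.43 to 86.9 ± 2.05 CPM (SD, n = 4 each; log2 fold change -0.31, edgeR adjusted p = 7.61e-13). *Plau*, whose urokinase product cleaves PDGF-D, was at 8.94 ± 0.889 and 9.22 ± 0.570 CPM and *St14*, for the protease matriptase, at 1.02 ± 0.261 and 1.22 ± 0.212 CPM (SD, n = 4 each), and neither was called. *Serpine2*, which encodes a secreted serine protease inhibitor, had a log2 fold change of -0.02 and was not called (edgeR adjusted p = 0.563).

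Among genes for proteins that bind PDGFs or act beside the receptors, *Sparc* rose by 0.51 on the log2 scale to 1130 CPM and *Lrp1*, a co-receptor of the β receptor, by 0.32 to 3016 CPM. *Cspg4*, which encodes the NG2 proteoglycan of pericytes, rose from 82.9 ± 2.50 to 169.2 ± 5.62 CPM (SD, n = 4 each; log2 fold change 1.03, edgeR adjusted p = 2.02e-30). *Nrp1* was not called, at 126.2 and 124.5 CPM, and the receptor-like gene *Pdgfrl* fell by 0.38. *A2m* was too low to be tested, at most 0.175 CPM.

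Downstream of the receptors, 12 of 36 signal transducer genes rose (33.3%, against 20.9% of all genes) and 13 fell (36.1%, against 20.3%). Their median log2 fold change was -0.02, against -0.01 over all genes tested. Each of the 36 was at 14.7 CPM or more in every culture, whereas 16494 of the 22544 genes tested averaged at least 1 CPM. The higher shares in both directions are therefore not read as a response of the pathway. The largest rises were those of *Rasa1*, the Ras GTPase-activating protein that docks on the β receptor (0.62), *Map2k1* (0.40) and *Pik3cb* (0.36), and among the larger falls were those of *Mapk3* (-0.48) and the adaptor *Nck2* (-0.37). The adaptor *Grb2*, the phosphatase *Ptpn11* and the phospholipase *Plcg1* had log2 fold changes of -0.03, -0.01 and -0.01 and were not called; they are named here after their values were seen.

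Of 15 genes that restrain receptor tyrosine kinases, 8 rose (53.3%, against 20.9% of all genes) and 4 fell (26.7%, against 20.3%), with a median log2 fold change of 0.17. *Lrig1*, a membrane protein that limits several growth factor receptors, went from 80.2 ± 3.08 to 146.5 ± 8.19 CPM (SD, n = 4 each; 0.87 on the log2 scale) and *Socs3*, a suppressor of cytokine signals, from 21.5 ± 2.04 to 38.8 ± 2.29 CPM (0.85). *Cbl*, the ubiquitin ligase that marks activated PDGF receptors for degradation, rose by 0.36. Its relative *Cblb* fell by 0.21, *Socs1* by 0.29 and *Grb10* by 0.33.

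The immediate early genes, which PDGF and many other stimuli induce, moved mostly upward. Of 16 genes, 13 rose (81.2%, against 20.9% of all genes), 1 fell and 2 were not called, and the median log2 fold change was 0.48. *Egr2* rose most, from 6.67 ± 0.744 to 18.7 ± 1.10 CPM (SD, n = 4 each; log2 fold change 1.49), followed by *Egr3* (0.91) and the nuclear receptor gene *Nr4a1* (0.89). *Srf*, the serum response factor that drives several of these genes, was the one that fell, by 0.52 on the log2 scale. *Jun* and *Atf3* were not called, with log2 fold changes of 0.04 and -0.19. The list is not specific to PDGF and was chosen with earlier results of these data known. The medium also held other growth factors, and a response to PDGF was not tested.

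**Figure D4:**
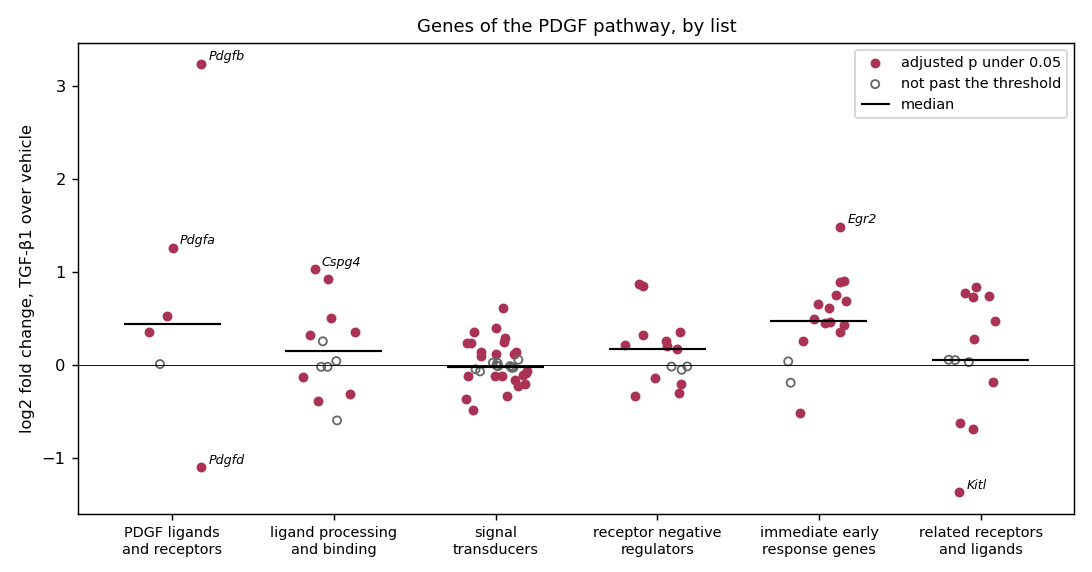
Log2 fold change (y axis, TGF-β1 over vehicle) of the genes reported from each list; filled points had an adjusted p under 0.05, open points did not, and the line is the median over all tested genes of the list. Among the 5 lists beside the PDGF genes, the immediate early genes have the highest median, 0.48, while the signal transducers centre on -0.02.

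The nearest relatives of the PDGF genes are the VEGF ligands, which share their cystine-knot fold, and the KIT, CSF1 and FLT3 receptors, which share the receptor class. They were listed together with the VEGF receptors and with the ligands of the KIT, CSF1 and FLT3 receptors, which are not themselves relatives of PDGFs. Of the 13 genes of this list that were tested, 6 rose (46.2%, against 20.9% of all genes) and 4 fell (30.8%, against 20.3%). *Vegfa* rose from 103.2 ± 2.65 to 184.1 ± 5.72 CPM (SD, n = 4 each; log2 fold change 0.83), *Vegfc* by 0.75 and *Pgf* by 0.48, while *Vegfd* fell by 0.68 from 186.3 CPM and *Vegfb* was not called (0.05). The VEGF ligands thus moved in both directions, as the PDGF ligands did.

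Of the receptors, *Flt1* rose by 0.28 to 99.2 CPM, *Flt4* rose by 0.78 to 2.96 CPM and *Kdr* was not called (0.06). *Csf1r* rose by 0.73 to 2.50 CPM. None of the 6 other macrophage and microglia markers tested was called, and their list as a whole, with *Csf1r* in it, summed to 8.55 to 9.31 CPM with vehicle and 9.94 to 11.7 CPM with TGF-β1; the part of such cells in the *Csf1r* value was not tested. *Kit* and *Flt3* were at most 0.168 and 0.170 CPM and were not tested. The ligand of KIT, *Kitl*, fell most in the list, from 101.2 ± 2.38 to 39.3 ± 2.68 CPM (SD, n = 4 each; log2 fold change -1.37, edgeR adjusted p = 2.25e-29). *Flt3l* fell by 0.63. *Il34* fell by 0.18 with overlapping groups, a call that was lost with DESeq2 (adjusted p = 0.0664) and without vehicle replicate 1, vehicle replicate 2 or TGF-β1 replicate 7 (0.0811, 0.164 and 0.11). *Csf1*, at 581.1 and 594.2 CPM, was not called.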

How the data were processed

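Bulk RNA-seq libraries from 8 mouse brain pericyte cultures, 4 with TGF-β1 and 4 with vehicle, were analysed. Per the labels and the study's methods, the authors aligned reads to mm10 with STAR 2.7.5c, used SAMtools 1.15 to remove PCR duplicates, and deposited raw counts per Ensembl gene from featureCounts 2.0.3, without normalization. The annotation release, strand setting and handling of shared reads are not given in the sources used here. Symbols came from a separate list of gene names, which held 54409 of the 54532 identifiers. Positions were read from the GENCODE M21 annotation (GRCm38, which mm10 also denotes). Counts were tested with edgeR 4.0.16 in R 4.3.3 (filterByExpr, TMM, robust quasi-likelihood test, no covariate), with Benjamini-Hochberg adjustment over 22544 genes and a threshold of 0.05. The standard error is the log2 fold change divided by the square root of F. CPM used TMM-scaled totals. Lengths were unions of annotated exons, and promoter windows of chromosome 18 were left out. The code was tested on simulated data. The members and the gene lists were chosen with earlier results of these data known. Named were the 6 PDGF genes, the tested genes of the lists for ligand processing and for related receptors, the 3 largest rises and falls called in the other lists, and the 3 genes most alike to each called PDGF gene; 2 genes that this rule names are not reported here, though list counts and medians include them. Marker lists also covered smooth muscle cells, astrocytes and neurons. Alternatives were DESeq2 1.42.0, 3 other scalings, 2 other filters, halved counts, each culture left out and another gene length. Depth of 45255235 to 47651397 counts per culture limits precision for genes of few reads. Cultures were labelled as separate samples. Pairs within a group differed by more than sampling noise (chi-square per degree of freedom 2.25 to 3.92, or 1.12 to 1.98 with counts halved). This cannot tell separate isolates from repeat libraries, which can also differ beyond sampling noise. The methods describe isolates treated with both agents, but no label pairs the cultures, so p-values measure the spread between these samples.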

Additional observations from a re-analysis of the deposited data

Results flagged for a closer look

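In 3 of the 100 groups of 4 values examined (the named genes tested and the library totals), 1 culture lay far from the other 3, where chance gives about 5. *Kitl* was at 104.8 CPM in vehicle replicate 3, with the nearest culture at 100.2. *Vegfa* was at 107.2 CPM in vehicle replicate 2, with the nearest at 102.2. *Egr3* was at 6.85 CPM in vehicle replicate 4, with the nearest at 7.18. The 3 fall in different cultures, no PDGF ligand or receptor gene is among them, and in each gene the gap is small beside the difference between the groups.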

How the results depend on the processing

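The calls of the 5 changed PDGF genes and their directions held in all alternatives in which they were tested; *Pdgfb* was not tested under the filter of at least 10 counts in every culture, since vehicle replicate 3 had 9. Over the tools, scalings, filters and counting units, the log2 fold change was 1.25 to 1.27 for *Pdgfa*, 3.16 to 3.25 for *Pdgfb*, 0.35 to 0.36 for *Pdgfc*, -1.11 to -1.09 for *Pdgfd*, 0.52 to 0.53 for *Pdgfrb* and 0.00 to 0.02 for *Pdgfra*. With 1 culture left out, *Pdgfra* lay between -0.0097 and 0.0346 (adjusted p 0.475 to 0.988), the negative value being without TGF-β1 replicate 7. In the same way *Plau* lay between -0.0078 (without vehicle replicate 1) and 0.1027, and *Serpine2* between -0.0314 and 0.0088 (without TGF-β1 replicate 8); neither gene was called in any fit. Among the named genes of the pathway lists, *Il34* was the 1 whose call was lost, as given above. The number of genes called ranged from 8559 to 9311 against 9304, and each list's counts stayed within 1.5 times. With the longest transcript as length, levels per kb in the vehicle and TGF-β1 cultures were 12.8 and 30.7 for *Pdgfa*, 0.0845 and 0.800 for *Pdgfb*, 13.5 and 17.2 for *Pdgfc*, and 9.15 and 9.22 for *Pdgfra*, with 53.7 for *Pdgfrb* with TGF-β1; lengths are shorter, and the order of the ligands' group means was the same, although *Pdgfa* was above *Pdgfc* in vehicle replicate 3 (13.34 and 13.19). No paired analysis was possible because the labels number the vehicle cultures 1 to 4 and the TGF-β1 cultures 5 to 8.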

Other observations

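The genes whose change over the 8 cultures was most like that of each called PDGF gene were sought among 16494 genes of at least 1 CPM, by the root mean square difference in log2 CPM set relative to the vehicle mean. For *Pdgfa* these were *Pdk4*, a kinase gene of glucose oxidation (difference 0.051), the matricellular gene *Thbs2* (0.056) and *Serinc5* (0.059), which rose by 1.29, 1.3 and 1.22 on the log2 scale. *Pdgfb* was closest to *C430002N11Rik* (0.131), the lipoprotein receptor gene *Olr1* (0.175) and *Anxa8* (0.232), with log2 fold changes of 3.25, 3.12 and 2.97. *Pdgfc* was closest to *Aprt*, *Emp2* and *Pkm* (0.026 to 0.028). *Pdgfd* was closest to *Bicdl1* (0.049), *Adamtsl1* (0.054) and *Id2*, an inhibitor of helix-loop-helix factors (0.054), which fell by 1.08, 1.09 and 1.12. *Pdgfrb* was closest to *3110039I08Rik* (0.015), the oncostatin M receptor gene *Osmr* (0.022) and the actin-binding *Dbn1* (0.023), with log2 fold changes of 0.53, 0.50 and 0.55. With 2 groups of 4 cultures, likeness mostly reflects a similar difference between the groups.

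Of the 8 pericyte markers tested, *Cspg4*, *Mcam* (0.94) and *Ndufa4l2* (1.85) rose and *Rgs5* (-2.02) and *Anpep* (-0.43) fell on the log2 scale. Of the 6 smooth muscle markers, *Cnn1* rose (0.36, edgeR adjusted p = 0.0486) and *Smtn* (-1.02) and *Lmod1* (-0.65) fell. The summed level was 841.2 to 915.9 CPM with vehicle and 784.0 to 818.4 CPM with TGF-β1. Most of that sum was *Acta2*, at 689.7 to 760.5 CPM, which was not called (-0.03, edgeR adjusted p = 0.339). The largest change within it was that of *Smtn*, from a mean of 125.1 to 61.6 CPM. From its RNA-seq counts, the study described both *Acta2* and *Myh11* as lower with TGF-β. Here *Myh11* had means of 1.10 and 0.790 CPM and was not called (-0.47, edgeR adjusted p = 0.078). Its treated cultures were all below its vehicle cultures. Of the 5 astrocyte markers tested, *Slc1a3* (0.64) and *Aldh1l1* (0.77) rose and *Slc1a2* fell (-1.24), with sums of 243.4 to 255.5 and 222.9 to 234.6 CPM, mostly from *Gja1*. The oligodendrocyte precursor list without *Pdgfra* summed to 14.9 to 15.5 CPM with vehicle and 14.4 to 15.9 CPM with TGF-β1, mostly from *C1ql1*. Its 2 called genes, *Sox10* and *Lhfpl3*, both fell, with few reads and calls near the threshold. The neuron list summed to 14.2 to 16.8 and 16.2 to 19.7 CPM, with a rise in *Tubb3* (1.90) and a fall in *Map2* (-0.65). The 11 pericyte markers summed to 221.0 to 231.1 CPM with vehicle and 292.1 to 310.6 CPM with TGF-β1. By far the largest change in that sum was in *Cspg4*, from a mean of 82.9 to 169.2 CPM. The means of *Mcam* (5.25 to 10.1 CPM) and *Ndufa4l2* (0.884 to 3.19 CPM) also went up. Those of *Anpep* (40.5 to 30.1 CPM) and *Rgs5* (8.62 to 2.13 CPM) went down, and *Notch3* was not called (88.45 and 85.9 CPM).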
